A study of Mus musculus with 57 samples.

Results

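RNA from CD11b-positive brain cells, annotated as microglia, was sequenced in adult wild-type (WT) mice and in littermates deficient in P2RY12 (KO), the nucleotide receptor of resting microglia. The results concern 9 genes: Pgk1, Liph, Slc1a3, Ildr1, Wdr41, Kdm1b, Dnajb13, Gm32296 and Gm35582. They were chosen because earlier fits of these counts placed them higher in KO than in WT without LPS, so that difference is described below and not tested. All 9 are among the 50565 genes counted in the first experiment, and 8 are among the 53278 genes of the second, from which Gm35582 is missing. All of them passed the filter on low counts (9 of 31709 genes and 8 of 16088 genes kept). The first experiment, called the sex experiment here, covered 8 WT animals (4 of each sex) and 10 KO animals (5 of each sex), for which the labels list no treatment. The second, called the LPS experiment, compared WT and KO libraries labelled ns with WT and KO libraries labelled LPS. LPS (lipopolysaccharide, from the outer membrane of bacteria, which sets off innate immune signalling) was given as an intraperitoneal injection of 1 mg/kg. What ns stands for, the sex of the mice in the LPS experiment and the construction of the P2ry12 allele are not stated in the labels.

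P2RY12 is a receptor for ADP coupled to inhibitory G proteins, through which microglial processes move toward sites of injury. It marks resting microglia, and its transcript falls when microglia are activated, as after LPS. The 9 genes do not form a known pathway. Pgk1 encodes phosphoglycerate kinase, which makes ATP in glycolysis. Liph encodes a lipase that releases lysophosphatidic acid, a signalling lipid, from phosphatidic acid, and Slc1a3 encodes the glutamate transporter GLAST, best known from astrocytes. Ildr1 encodes an angulin, a membrane protein of tricellular junctions. The product of Wdr41 joins C9orf72 and Smcr8 in a complex that acts at lysosomes, and Kdm1b removes methyl groups from lysine 4 of histone H3. Dnajb13 encodes a radial spoke protein of motile cilia. Gm32296 and Gm35582 are annotated as long noncoding RNAs.

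Levels are given in CPM, read counts scaled to a common library total with TMM factors. Library totals ran from 58.54 M to 318.5 M counts (M, mega) in the sex experiment and from 15.91 M to 168.4 M counts in the LPS experiment. Of nonzero counts up to 20, 79 to 89.2% per library were even in the sex experiment, against 39.7 to 45.6% in the LPS experiment. Whether fragments were counted more than once in the sex experiment was not tested. P2ry12 was at 3007 to 5928 CPM in WT and 309.3 to 526.4 CPM in KO animals of the sex experiment, so all 18 animals matched their genotype label. It was also lower in KO than in WT within each treatment of the LPS experiment (584.9 to 1235 against 3512 to 5405 CPM at ns, 84.4 to 154 against 400.4 to 1062 CPM with LPS). The 4 WT libraries of library number 2 in the LPS experiment went against their treatment labels. The acute-phase gene Saa3, at 1.52 to 64.3 CPM in the other 6 WT ns libraries and 1417 to 9718 CPM in the other 6 WT LPS samples, was at 1785 and 2491 CPM in the pair labelled WT ns and at 1.59 and 3.20 CPM in the pair labelled WT LPS. They were therefore kept out of the fits and are shown apart. That left 6 WT ns, 8 KO ns, 6 WT LPS and 8 KO LPS samples. Marker genes of microglia (12 in the table) were abundant throughout, with summed levels of 17670 to 53760 CPM in those samples. Summed markers of neutrophils and monocytes exceeded 10000 CPM in 2 animals (male WT 5 and female WT 2) and in 4 libraries of the LPS experiment (WT ns 3, WT ns 8, WT LPS 7 and KO ns 6). The differences between KO and WT without LPS are given with and without these 6.

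Without LPS, Pgk1, Slc1a3, Liph and Ildr1 were higher in KO than in WT in both experiments, Wdr41 and Kdm1b mainly in the LPS experiment, and Dnajb13 and Gm32296 in the sex experiment. Differences between the experiments were not tested. Of the 8 genes in both count tables, 6 had estimates above 0 in both fits. The median log2 fold change was 0.447 over the 9 genes in the sex experiment and 0.628 over the 8 genes at ns, against -0.0128 and -0.0443 over all genes tested. In the sex experiment 1 of 9 genes, Pgk1, had every KO animal above every WT animal, an order found in 0.0694% of all genes. Within males 3 of 9 genes showed it (Pgk1, Ildr1 and Slc1a3, against 0.997% of all genes), and within females 4 of 9 (Pgk1, Ildr1, Dnajb13 and Gm32296, against 1.7%). Of the LPS experiment's 8 genes, 4 had every KO ns library above every WT ns library, namely Pgk1, Slc1a3, Wdr41 and Kdm1b (0.535% of all genes). Since the genes were picked on this contrast, nothing is read from these shares.

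**Figure D1:**
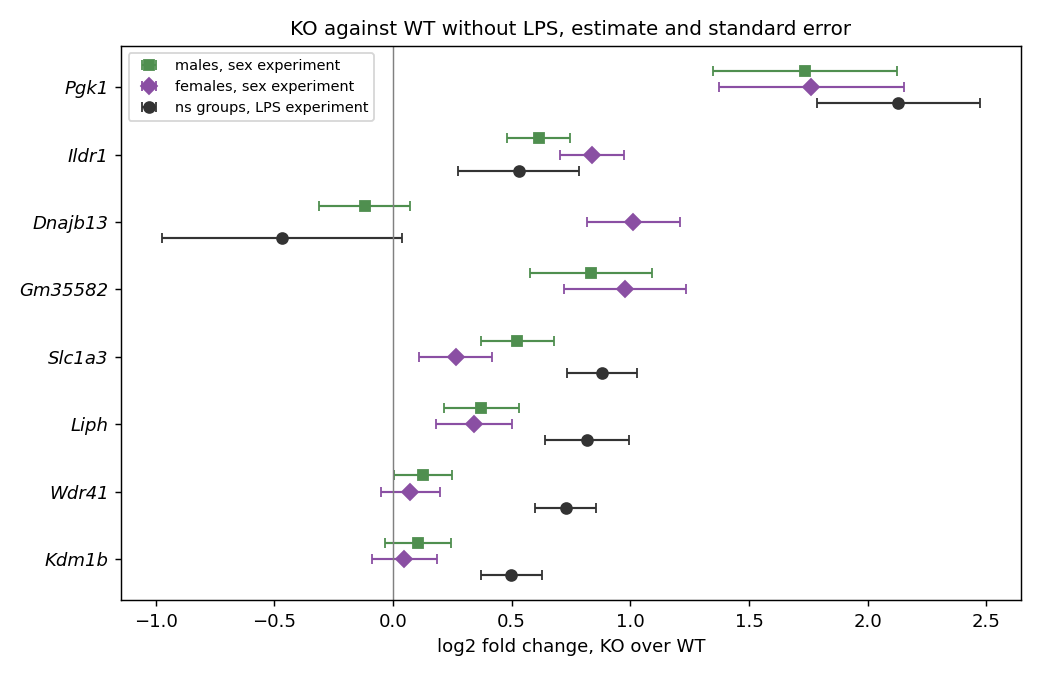
Estimated log2 fold change of KO over WT without LPS (horizontal axis) for 8 genes, in males and females of the sex experiment and between the ns groups of the LPS experiment. Bars are standard errors. Pgk1 lies near 2 in each comparison, Wdr41 and Kdm1b lie near 0 in the sex experiment and at 0.73 and 0.50 in the LPS experiment, and Dnajb13 lies above 0 in females. Gm35582 is missing from the LPS table, and Gm32296 is left out because all its KO ns libraries were at 0.

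Pgk1 lies on the X chromosome (GRCm39, 105230706 to 105247305, plus strand). In males its level was 8.44, 6.33, 8.40 and 25.9 CPM in the WT animals and 41.6, 35.9, 35.6, 51.3 and 40.3 CPM in the KO animals. In females it was 7.15, 16.3, 8.60 and 5.47 CPM in WT and 28.4, 33.1, 32.1, 29.5 and 35.9 CPM in KO. The lowest KO animal, a female, lay above the highest WT animal, a male. The log2 fold change averaged over the sexes was 1.75 ± 0.27 (SE), a fold of 3.36, with 1.73 ± 0.39 in males and 1.76 ± 0.39 in females. The ns libraries of the LPS experiment gave 28, 30.7 and 54.0 CPM as the lowest, median and highest of 6 WT and 132, 147 and 268 CPM of 8 KO libraries. These groups did not overlap either, and the log2 fold change was 2.13 ± 0.34, a fold of 4.37. With the number 2 libraries kept under their labels it was 1.72, those libraries being at 62.6 and 113 CPM.

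In 5 groups the library highest in Pgk1 was rich in neutrophil and monocyte markers. The highest Pgk1 level among male WT (25.9 CPM), female WT (16.3), WT ns (54.0), WT LPS (248) and KO ns (268 CPM) was in each case in a library with more than 10000 CPM of those markers. Among libraries below that level the order was mixed. KO LPS 5 (4678 CPM of the markers, the most of its group) ranked 1 of 8 in Pgk1. Male WT 4 (8170 CPM) ranked 3 of 4 and KO ns 4 (7987 CPM) 5 of 8. Female KO 4 (5899 CPM, the most of its group) ranked 4 of 5. Without the libraries above 10000 CPM the log2 fold change was 2.29 in the sex experiment and 2.32 at ns, so the difference between the genotypes was larger without them. Near-identical copies of Pgk1 carried few counts: Pgk1-rs7 reached 1.37 CPM among the animals and 0.0928 CPM in the fitted samples of the LPS experiment. The counts are per gene and do not show which part of Pgk1 the reads cover, or how reads that match more than 1 copy were assigned.

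Genes of the pathways around the 9 were set beside them in 7 lists. Over these lists together, edgeR called none of 111 genes tested between KO and WT in the sex experiment (16 had an unadjusted p under 0.05, and DESeq2 called 1) and none of 87 at ns (10 had an unadjusted p under 0.05, and DESeq2 called 0). The 24 tested genes of glycolysis had median log2 fold changes of -0.11 in the sex experiment and -0.09 at ns, against -0.01 and -0.04 over all genes. Gapdh differed by -0.07 ± 0.12 and 0.03 ± 0.15, Aldoa by -0.07 ± 0.13 and -0.08 ± 0.14, Eno1 by -0.16 ± 0.16 and -0.10 ± 0.12, and Ldha by -0.21 ± 0.17 and 0.20 ± 0.28, in that order of experiments. Pgk2, the testis form of the kinase, had 0 counts in all libraries.

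**Figure D2:**
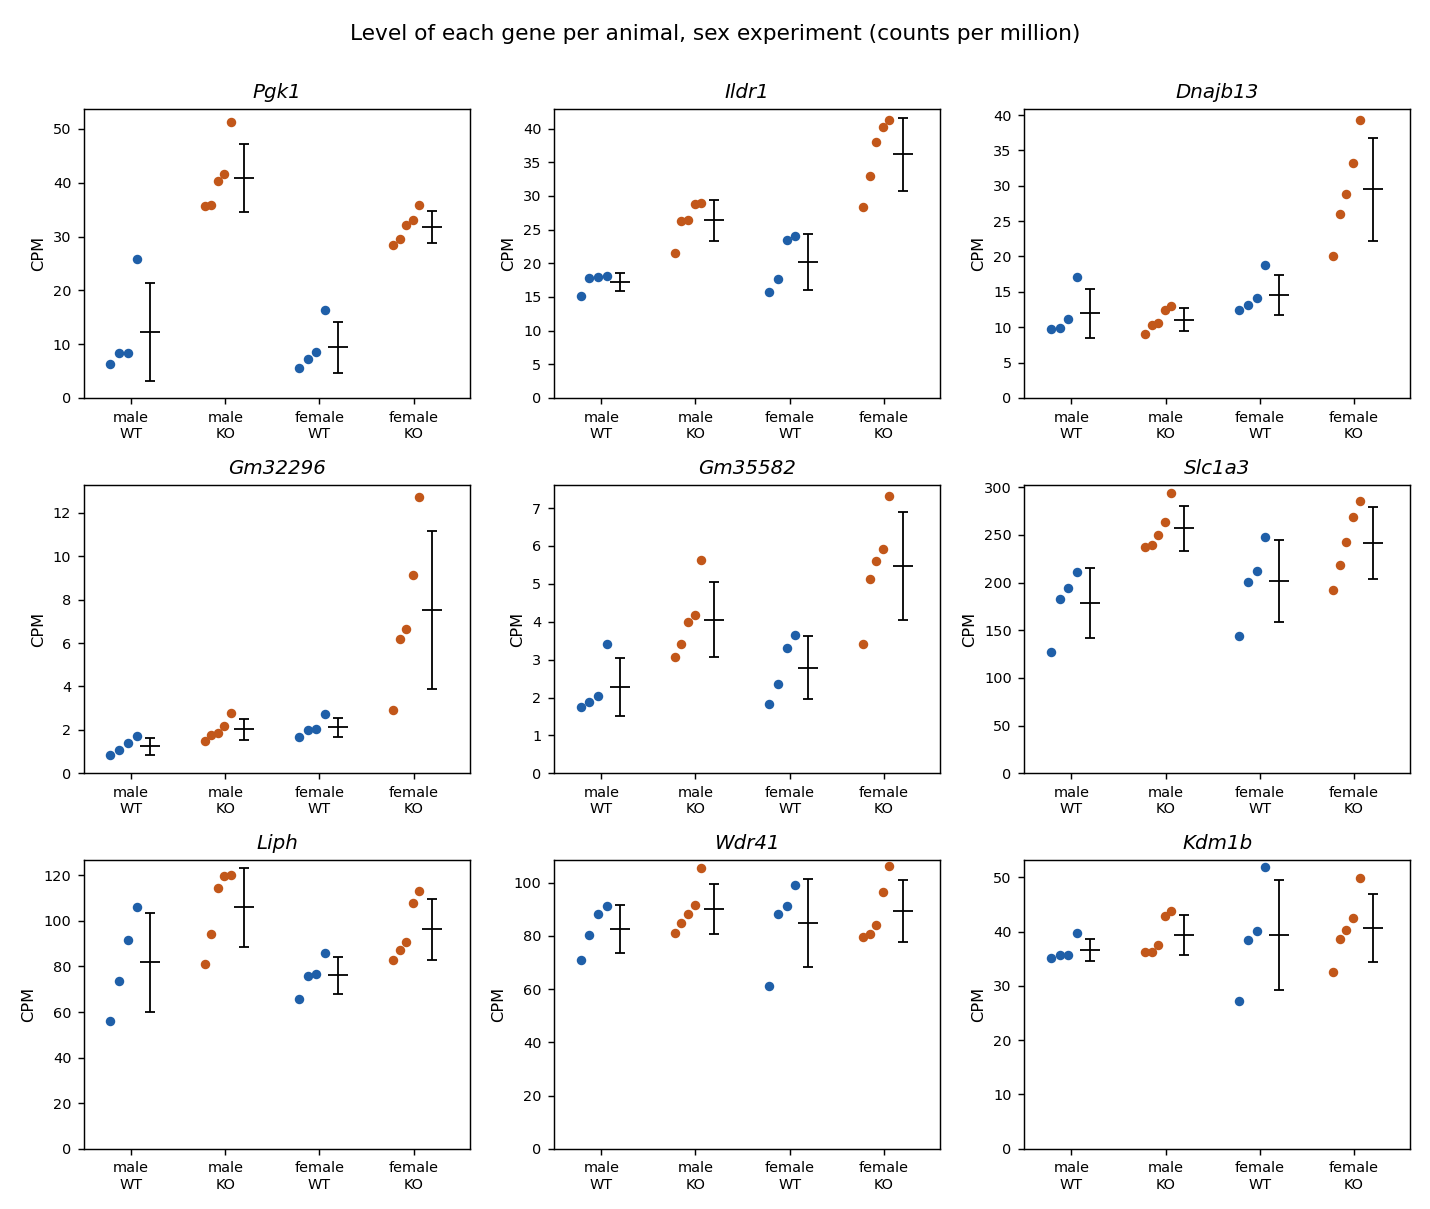
Level in CPM (vertical axis, from 0) of the 9 genes in each animal of the sex experiment, by sex and genotype. Points are animals, ordered by level within a group, and the black bars are the mean and SD. Pgk1 separates all KO from all WT animals, Dnajb13 and Gm32296 stand high in female KO, and the Wdr41 and Kdm1b groups overlap.

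Slc1a3 (chromosome 15, 8663608 to 8742648, minus strand) was at 211, 194, 182 and 127 CPM in male WT and 240, 249, 294, 264 and 238 CPM in male KO animals. In females it was at 212, 144, 200 and 248 CPM in WT and 243, 218, 269, 193 and 286 CPM in KO. Males did not overlap between genotypes and females did. The log2 fold change over both sexes was 0.39 ± 0.11, and 0.26 without the pair of WT animals rich in neutrophil markers, which had the lowest Slc1a3 levels of their groups. Among ns libraries it ran from 113 over a median of 151 to 173 CPM in WT and from 215 over 261 to 328 CPM in KO, without overlap, for a log2 fold change of 0.88 ± 0.15 (0.86 with the number 2 libraries and 0.70 without those rich in neutrophil markers). Astrocytes also express Slc1a3. The summed level of 10 astrocyte markers was 4.94 to 19.0 CPM in KO ns and 6.83 to 13.9 CPM in WT ns libraries, with overlap. In the sex experiment it was higher, at 36.1 to 256.6 CPM in WT and 38.7 to 180.5 CPM in KO, and 9 of 10 astrocyte markers had estimates above 0 (median 0.12). Their part in the Slc1a3 difference was not tested. Slc1a2, the other main glial glutamate transporter, differed by 0.09 ± 0.36 and 0.09 ± 0.46, and Glul, glutamine synthetase, by 0.18 ± 0.10 and 0.14 ± 0.18 in the sex and LPS experiments, none of which passed the test. LOC118568186 and Gm31340, which overlap Slc1a3, differed by 0.40 and 0.03 in the sex experiment (adjusted p = 0.537 and 0.998, edgeR).

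Liph (chromosome 16, 21772567 to 21814408, minus strand) was at 106, 91.5, 73.8 and 56.1 CPM in male WT and 120, 114, 120, 81.1 and 94.1 CPM in male KO. Female WT animals had 75.7, 65.9, 85.8 and 76.8 CPM and female KO animals 108, 113, 87.3, 82.9 and 90.6 CPM. The genotypes overlapped in both sexes, and the log2 fold change was 0.36 ± 0.11, or 0.26 without the pair rich in neutrophil markers. The lowest, median and highest ns libraries were at 47.8, 64.9 and 73.2 CPM in WT and 70.7, 113 and 140 CPM in KO. Only KO ns 6, at 70.7 CPM, fell within the WT range. The log2 fold change there was 0.82 ± 0.18, or 0.79 without the libraries rich in neutrophil markers. Lpar6, a receptor for lysophosphatidic acid, differed by -0.22 ± 0.10 and 0.55 ± 0.32, and neither passed the test. Lipi, the related lipase, differed by -0.16 ± 0.35 in the sex experiment and did not pass the filter in the LPS experiment.

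Ildr1 (chromosome 16, 36514340 to 36547166, plus strand) was at 17.8, 17.9, 15.2 and 18.1 CPM in male WT and 26.3, 28.8, 26.4, 21.5 and 29 CPM in male KO. Female WT had 17.7, 15.7, 23.5 and 24 CPM and female KO 28.4, 33, 38.1, 40.2 and 41.3 CPM. Within each sex the genotypes did not overlap, and the log2 fold change was 0.73 ± 0.09, or 0.69 without the pair rich in neutrophil markers. The ns libraries gave 4.88, 6.64 and 9.50 CPM in WT and 7.91, 10.1 and 12.7 CPM in KO, with overlap, for a log2 fold change of 0.53 ± 0.26, or 0.46 without the libraries rich in neutrophil markers. With the number 2 libraries it was 0.87, those labelled WT ns being at 1.11 and 0.838 CPM. The related angulin genes Ildr2 and Lsr differed by -0.07 ± 0.33 and 0.20 ± 0.09 in the sex experiment and by -0.36 ± 0.29 and -0.41 ± 0.43 at ns, none past the test.

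Wdr41 (chromosome 13, 95112226 to 95161800, plus strand) ran from 61.1 to 98.9 CPM in WT and from 79.4 to 106 CPM in KO animals of the sex experiment. The groups overlapped, and the log2 fold change was 0.10 ± 0.09, falling to 0.004 without the pair of animals rich in neutrophil markers. The ns libraries ran from 64.3 over 72.9 to 81.4 CPM in WT and from 86.2 over 122 to 136 CPM in KO, without overlap, and the log2 fold change was 0.73 ± 0.13. It was 0.72 without the libraries rich in neutrophil markers and 0.76 with the number 2 libraries. Its partners in the lysosomal complex, C9orf72 and Smcr8, differed between the ns groups by 0.36 ± 0.30 and -0.10 ± 0.18. Pde8b, which overlaps Wdr41 on the opposite strand, differed by 0.35 ± 0.14 (adjusted p = 0.479, edgeR), and where the strand was not used in counting, shared reads cannot be assigned to either gene. Gm48350 and Gm41024 also overlap Wdr41, and in the sex experiment they differed by 0.04 and 0.05 (adjusted p = 0.995 and 0.998, edgeR).

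Kdm1b (chromosome 13, 47196849 to 47238085, plus strand) ran from 27.2 to 51.9 CPM in WT and from 32.6 to 49.8 CPM in KO animals of the sex experiment, so the KO range lay inside the WT range, and the log2 fold change was 0.08 ± 0.10, or -7e-04 without the pair of animals rich in neutrophil markers. The ns libraries were at 27.6, 34.4 and 36.2 CPM in WT and 37.6, 46.5 and 54.8 CPM in KO, without overlap, for a log2 fold change of 0.50 ± 0.13, or 0.38 without the libraries rich in neutrophil markers. Kdm1a, the other demethylase of its family, differed by -0.28 ± 0.19 and Glyr1, a cofactor of Kdm1b, by -0.06 ± 0.15. The gene is flanked by Tpmt, 15 bases before it, and by Dek, 157 bases after it. Both neighbours lie on the opposite strand and differed by 0.44 ± 0.20 and 0.17 ± 0.22 between the ns groups (adjusted p = 0.542 and 0.692, edgeR).

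For the genes whose KO ns libraries all lay above the WT ns libraries, the 250 bases before the annotated start are printed from RefSeq (GRCm38.p6). They are on the strand of the gene and show where the motifs named below occur. The windows are chrX:106186850-106187099 (plus) for Pgk1, chr15:8710808-8711057 (minus) for Slc1a3, chr13:94976094-94976343 (plus) for Wdr41 and chr13:47043249-47043498 (plus) for Kdm1b. Capitals mark ACGTG, the core of the hypoxia response element, and AGGAAGT, an ETS factor core, searched on both strands (CACGT and ACTTCCT on the other). ACGTG occurs in 16.6% and AGGAAGT in 7.69% of 32851 such windows. Pgk1 holds ACGTG at 2 places and AGGAAGT at 1, and the other 3 windows hold neither.
Pgk1: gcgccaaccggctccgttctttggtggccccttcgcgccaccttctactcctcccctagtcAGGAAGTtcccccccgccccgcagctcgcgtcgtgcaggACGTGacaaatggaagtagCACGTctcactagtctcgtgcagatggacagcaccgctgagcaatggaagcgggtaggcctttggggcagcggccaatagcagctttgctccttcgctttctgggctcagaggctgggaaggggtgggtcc
Slc1a3: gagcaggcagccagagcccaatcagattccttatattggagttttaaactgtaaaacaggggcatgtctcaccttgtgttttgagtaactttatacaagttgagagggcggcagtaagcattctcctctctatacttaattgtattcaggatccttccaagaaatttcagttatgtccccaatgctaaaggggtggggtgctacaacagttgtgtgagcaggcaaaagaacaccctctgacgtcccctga
Wdr41: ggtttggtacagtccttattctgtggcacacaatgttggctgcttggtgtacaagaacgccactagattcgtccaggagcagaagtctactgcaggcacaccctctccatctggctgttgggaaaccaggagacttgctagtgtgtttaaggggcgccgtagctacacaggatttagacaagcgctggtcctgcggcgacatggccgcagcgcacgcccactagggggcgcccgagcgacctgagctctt
Kdm1b: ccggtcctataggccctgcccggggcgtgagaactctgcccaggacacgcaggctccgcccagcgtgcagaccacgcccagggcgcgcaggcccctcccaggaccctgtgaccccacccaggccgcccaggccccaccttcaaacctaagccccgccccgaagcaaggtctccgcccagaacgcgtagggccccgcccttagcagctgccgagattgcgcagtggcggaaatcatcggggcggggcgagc
All 9 genes were found in the promoter table, and 3 of them (Pgk1, Ildr1 and Gm32296) have ACGTG in at least 1 window. Gm32296 has 2 windows and holds it in 1, whereas the share of 16.6% is per window and not per gene. A match describes the letters and shows no binding.

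Dnajb13 (chromosome 7, 100152218 to 100182834, minus strand) differed between genotypes in females. Female WT animals were at 14.1, 13.1, 18.7 and 12.4 CPM and female KO animals at 20.0, 28.9, 26, 33.2 and 39.3 CPM, without overlap, for a log2 fold change of 1.01 ± 0.20. Male WT animals were at 11.2, 9.87, 9.79 and 17.1 CPM and male KO animals at 12.4, 10.6, 13.0, 10.3 and 9.07 CPM, with a log2 fold change of -0.12 ± 0.19. Over both sexes it was 0.45 ± 0.14, or 0.54 without the pair rich in neutrophil markers. The ns libraries overlapped, with medians of 3.78 CPM in WT and 3.05 CPM in KO and a log2 fold change of -0.47 ± 0.51. Without the libraries rich in neutrophil markers it was 0.0029. Ependyma carries motile cilia. Its markers, summed with those of choroid plexus, ran from 117.5 to 180.4 CPM in female KO and 65.5 to 334.5 CPM in female WT. Foxj1, the regulator of motile cilia, differed by 0.01 ± 0.42 over both sexes. The 19 tested genes of the axoneme and radial spoke had a median log2 fold change of 0.01, and Rsph9, another radial spoke gene, differed by 0.05 ± 0.06. Gm8463, which did not pass the filter, overlaps Dnajb13, and Ucp2, a mitochondrial carrier gene 3385 bases before it, differed by 0.02 ± 0.11 in the sex experiment.

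Gm32296 (chromosome 12, 85571433 to 85590269, plus strand) followed a similar order among animals. Its level was 0.830, 1.06, 1.39 and 1.73 CPM in male WT, 1.84, 1.79, 2.79, 2.20 and 1.51 CPM in male KO, and 2.72, 1.69, 2.05 and 2.00 CPM in female WT. Female KO animals were at 2.92, 6.19, 6.65, 9.15 and 12.7 CPM, all above female WT. The log2 fold change was 0.68 ± 0.31 in males and 1.83 ± 0.32 in females, and over both 1.25 ± 0.23, or 1.30 without the pair rich in neutrophil markers. None of the 8 KO ns libraries held a count of it, which allows a pooled level of up to 0.0138 CPM (3 counts over the group, for counting error only), and 3 of 6 WT ns libraries held 8 counts in all. A genotype difference at ns was therefore not measurable for this gene. Its neighbours are Gm32348, 26263 bases after it, which differed by 0.18 ± 0.34 in the sex experiment, and Fos, 47384 bases before it, which differed by -0.34 ± 0.17 there (adjusted p = 0.984 and 0.578, edgeR).

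Gm35582 (chromosome 2, 178139004 to 178143867, minus strand) was measured in the sex experiment alone. It was at 2.04, 1.88, 1.75 and 3.40 CPM in male WT, 4.00, 3.40, 4.18, 3.07 and 5.62 CPM in male KO, 2.37, 1.83, 3.65 and 3.30 CPM in female WT, and 3.40, 5.12, 5.60, 7.33 and 5.93 CPM in female KO. Each sex overlapped at 1 or more animals, and the log2 fold change over both was 0.91 ± 0.18, or 0.96 without the pair rich in neutrophil markers.

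Some marker sums moved with genotype beside these differences. The summed level of 10 endothelial markers was 57.2 to 69.2 CPM in WT ns and 70.8 to 110.9 CPM in KO ns libraries, and 70.8 to 78.5 CPM in male WT against 80.3 to 89.9 CPM in male KO animals. Female WT (73.6 to 82.0 CPM) and female KO (82.0 to 100.1 CPM) met at the edge of their ranges. Of the single endothelial markers, 8 of 10 had estimates above 0 in the sex experiment (median 0.13) but 3 of 8 tested at ns (median -0.11), so at ns the sum and most of its members differed in sign. The sum of 10 neuronal markers was 3.71 to 7.44 CPM (median 5.66) in WT ns and 4.63 to 16.7 CPM (median 10.3) in KO ns libraries. At ns 9 of 10 neuronal markers had estimates above 0 (median 0.67), and Nefl passed the test (2.56 ± 0.48, adjusted p = 0.0194, edgeR). Of 9 genes used to check the LPS treatment, 2 had estimates above 0 at ns (median -1.24) and 0 with LPS (median -0.87). In the sex experiment 6 did (median 0.04). Saa3 was at 1.52 to 64.3 CPM in the fitted WT ns and 0.86 to 3.24 CPM in KO ns libraries. Of 12 neutrophil and monocyte markers, 0 had estimates above 0 in the sex experiment (median -1.86) and 0 at ns (median -0.62). Of 8 border macrophage markers, 7 had estimates above 0 in the sex experiment (median 0.41) and 1 at ns (median -0.25). None of these LPS check genes or neutrophil, monocyte and border macrophage markers was called between genotypes. Of 11 microglial markers tested in the sex experiment, 6 had estimates above 0 (median 0.04). There 1 was called lower in KO, against 4 of all 31709 genes. The part of these marker sets in the results was not tested. In bulk samples, fewer cells of a type and less RNA per cell cannot be told apart.

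**Figure D3:**
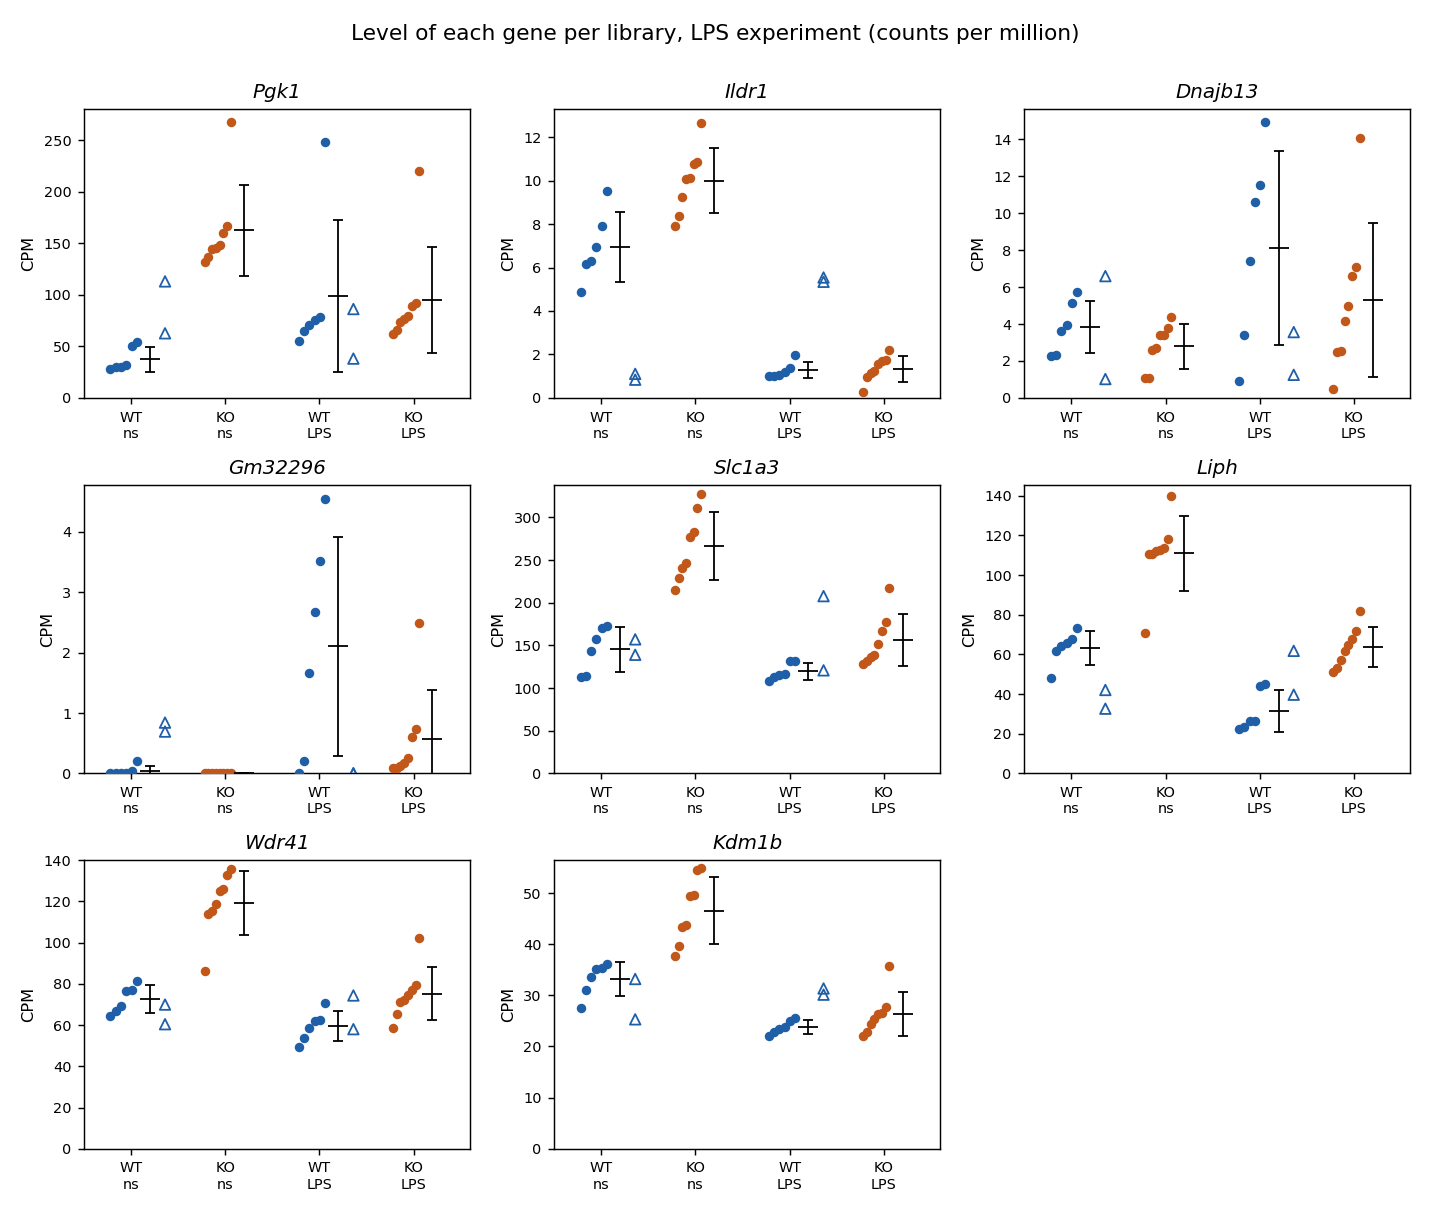
Level in CPM (vertical axis, from 0) of 8 genes in each library of the LPS experiment. Filled points are libraries, ordered by level within a group, black bars are the mean and SD, and open triangles are the WT libraries of number 2, shown apart. Pgk1, Slc1a3, Wdr41 and Kdm1b separate KO ns from WT ns, Ildr1 is low in both LPS groups, and the SD bar of Gm32296 in KO LPS is cut at 0.

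LPS lowered Ildr1, Liph, Kdm1b, Slc1a3 and Wdr41. Averaged over WT and KO, a comparison nearly independent of the choice of genes, these 5 genes fell, Dnajb13 rose and Pgk1 did not pass the test (edgeR, Benjamini-Hochberg adjusted p under 0.05). Gm32296, which passed the filter through the libraries with LPS, is described below without a test of LPS against ns. LPS changed 43.3% of all genes, 22.1% up and 21.1% down, so these calls are read against a high background. All WT ns libraries lay above all WT LPS samples for 3 genes (14.1% of all genes) and all KO ns above all KO LPS libraries for 2 (3.99%). The reverse order was found for Pgk1 in WT (10.8%) and Gm32296 in KO (3.65%). Values within a genotype use the ns libraries on which the genes were chosen, so nothing is read from these orders, and the LPS response within WT or KO is given below as a description, without a test. The summed microglial markers were lower too, at 22090 to 28490 CPM in KO LPS against 34110 to 53760 CPM in KO ns libraries and, with overlap, 17670 to 26950 CPM in WT LPS against 23980 to 40760 CPM in WT ns, and their part in the falls was not tested.

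Ildr1 fell most, from ns medians of 6.64 CPM in WT and 10.1 CPM in KO to 1.12 CPM (range 1.01 to 1.97) in WT LPS and 1.40 CPM (0.256 to 2.21) in KO LPS. No LPS library reached its own genotype's ns range. The log2 fold change was -2.64 ± 0.20 (adjusted p = 2.27e-11, edgeR), 6.24-fold lower. The WT libraries of number 2 had the reverse order under their labels, with 5.34 and 5.54 CPM in the pair labelled LPS.

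Liph and Kdm1b fell on average. Liph reached a median of 26.5 CPM (22.2 to 45.2) in WT LPS and 63.2 CPM (51.1 to 81.8) in KO LPS, and WT ns and WT LPS did not overlap. Its log2 fold change was -0.87 ± 0.12 on average (adjusted p = 2.08e-06, edgeR), -0.98 ± 0.19 in WT and -0.76 ± 0.16 in KO. Kdm1b was at 23.6 CPM (22.1 to 25.5) in WT LPS and 25.9 CPM (22 to 35.6) in KO LPS, below the ns libraries of the same genotype in every library. Its log2 fold change was -0.61 ± 0.09 on average (adjusted p = 3.51e-06, edgeR), -0.44 ± 0.14 in WT and -0.78 ± 0.12 in KO.

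Slc1a3 and Wdr41 also fell on average, though neither passed the test in library set 2 alone (adjusted p = 0.171 and 0.144, edgeR). Slc1a3 was at 116 CPM (109 to 132) in WT LPS and 145 CPM (128 to 218) in KO LPS, with an average log2 fold change of -0.49 ± 0.10 (adjusted p = 0.000329, edgeR), -0.24 ± 0.15 in WT and -0.73 ± 0.13 in KO. Wdr41 was at 60.2 CPM (49.6 to 70.5) in WT LPS and 73.5 CPM (58.7 to 102) in KO LPS, with -0.43 ± 0.09 on average (adjusted p = 0.000301, edgeR), -0.25 ± 0.14 in WT and -0.62 ± 0.12 in KO. Pde8b, which overlaps it, fell by 1.18 ± 0.10 (adjusted p = 2.2e-10, edgeR), and its part in the Wdr41 counts was not tested. The difference between the genotypes in LPS response contains the contrast on which the genes were chosen, so it was not tested. With the number 2 libraries kept under their labels, the WT estimates were -1.25 for Ildr1, -0.66 for Liph, -0.33 for Kdm1b, -0.17 for Slc1a3, -0.21 for Wdr41 and 0.81 for Pgk1.

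Pgk1 did not pass the test on average over the genotypes (0.34 ± 0.23, adjusted p = 0.245, edgeR). Its estimates within WT and KO, whose ns levels had chosen it, differed in sign. WT LPS samples had 55.6, 72.9 and 248 CPM as lowest, median and highest, all above the WT ns libraries, and the log2 fold change was 1.41 ± 0.35. Without WT LPS 7, the sample at 248 CPM, it was 0.94, and without every library rich in neutrophil markers 1.23. KO LPS libraries had 61.6, 78.0 and 220 CPM, and 7 of 8 lay below every KO ns library. The KO log2 fold change was -0.74 ± 0.30, and without KO LPS 5, the library at 220 CPM, it was -1.05. It ran from -1.06 to -0.62 over 38 alternative fits. KO LPS 5 also held the highest Slc1a3, Liph, Wdr41 and Kdm1b levels of its group. Of the other glycolysis genes, 9 of 24 rose with LPS and 4 fell, among them Gapdh by 1.10 ± 0.11, Ldha by 0.85 ± 0.20, Eno1 by 0.75 ± 0.09 and Aldoa by 0.28 ± 0.10, all higher.

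The other companion lists moved with LPS in mixed directions. Of 9 tested genes of glutamate transport and recycling 5 rose and 1 fell, with Slc7a11 higher by 1.92 ± 0.34 and Glul lower (-0.45 ± 0.13). None of 7 angulin and junction genes rose and 3 fell, while of 6 axoneme genes 1 rose and 4 fell, among them Rsph9 (-0.90 ± 0.28). Of 11 genes of lysophosphatidic acid synthesis and signalling 3 rose and 2 fell, with Lpar6 lower (-0.70 ± 0.23). Of 14 genes around C9orf72 and lysosomal amino acid sensing 1 rose and 2 fell, and neither C9orf72 (0.50 ± 0.21, adjusted p = 0.0604) nor Smcr8 (-0.27 ± 0.13, adjusted p = 0.0936) passed the test. Of 16 genes of H3K4 demethylation 2 rose and 2 fell, with Glyr1 higher by 0.39 ± 0.10.

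Gm32296 had more counts with LPS, and Dnajb13 rose. Gm32296, without a count in KO ns, held counts in all 8 KO LPS libraries (0.0853 to 2.49 CPM, median 0.216) and in 5 of 6 WT LPS samples (up to 4.55 CPM, median 2.18). Pooled KO LPS libraries were at 0.492 CPM, 35.6 times the limit that 0 counts in KO ns allow. That limit covers counting error only, and the pooled level takes no account of the spread between libraries. KO LPS 7 supplied 54 of the 109 counts, and without it the pooled level was 0.275 CPM, 19.9 times the limit. Dnajb13 was at 9.01 CPM (0.914 to 14.9) in WT LPS and 4.58 CPM (0.469 to 14.1) in KO LPS, overlapping the ns libraries. Its average log2 fold change was 1.03 ± 0.36 (adjusted p = 0.0217, edgeR). This call was lost when WT ns 2, WT ns 7, WT LPS 3, WT LPS 8 or KO LPS 7 was left out, with adjusted p between 0.0506 and 0.0794, when the number 2 libraries were kept (0.0699), and in library set 2 alone (1.03, adjusted p = 0.379).

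**Figure D4:**
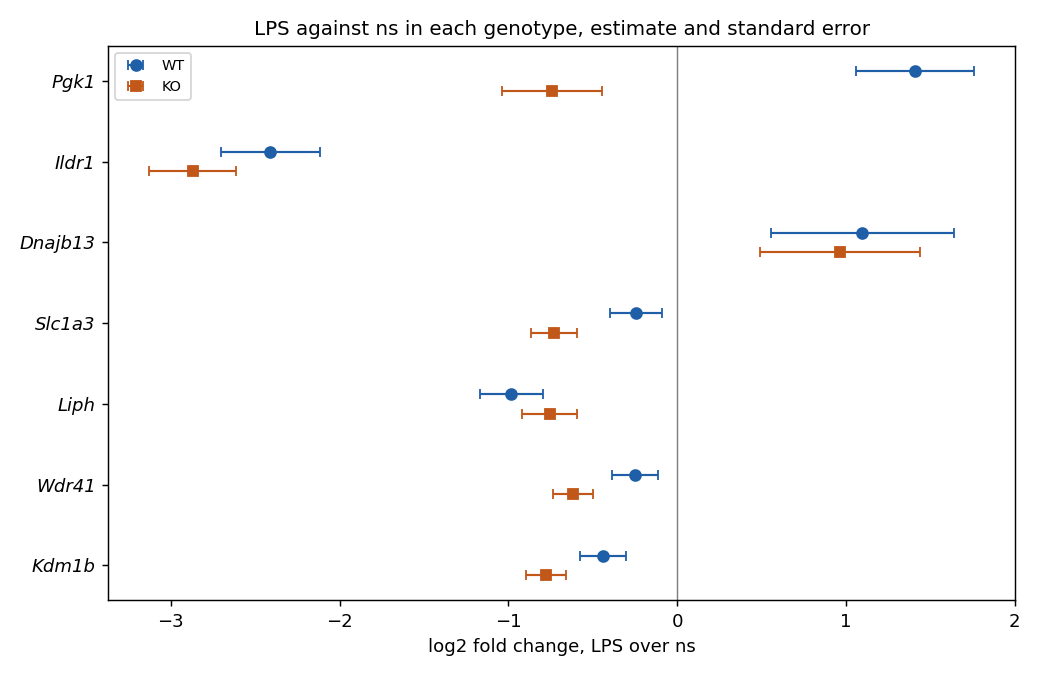
Estimated log2 fold change of LPS over ns (horizontal axis) in WT and in KO for 7 genes, with standard errors as bars. Ildr1 lies farthest below 0, Liph and Kdm1b lie below 0 in both genotypes, and Pgk1 lies at 1.41 in WT and -0.74 in KO. Gm35582 and Gm32296 are left out for missing or zero counts.

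With LPS, Liph remained higher in KO. The comparison of KO LPS with WT LPS is between libraries other than those on which the genes were chosen. Every KO LPS library (51.1 CPM or more) lay above every WT LPS sample (45.2 CPM or less), an order seen in 0.131% of all genes, and the log2 fold change was 1.04 ± 0.18 (adjusted p = 0.00739, edgeR). It was the only 1 of the 8 genes called (Gm32296 is given without a test), against 0.0249% of all genes called higher in KO. When the number 2 libraries were kept under their labels it was 0.82 and no longer passed (adjusted p = 0.0942). Within library set 2 alone it was 1.11 and did not pass (adjusted p = 1). Without the libraries rich in neutrophil markers it was 0.97 (adjusted p = 0.0147). Slc1a3 (0.40 ± 0.15, adjusted p = 0.590) and Wdr41 (0.36 ± 0.13, adjusted p = 0.576) had estimates above 0 that did not pass the test. Pgk1 differed by -0.02 ± 0.32 (adjusted p = 0.9998), Ildr1 by 0.07 ± 0.27, Kdm1b by 0.16 ± 0.13 and Dnajb13 by -0.60 ± 0.50, none past the test. Gm32296, which passed the filter through these libraries with LPS, differed by -2.02 ± 0.81, given without a test. Of 87 companion genes tested here, edgeR called Slc7a11, the cystine and glutamate exchanger, lower in KO (-2.44 ± 0.47, adjusted p = 0.0289).

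Females were compared with males among the WT animals, where 0.0725% of all genes were called in either direction. Dnajb13 (0.28 ± 0.20, adjusted p = 0.697, edgeR) and Gm32296 (0.75 ± 0.33, adjusted p = 0.651) did not pass the test there. Over both genotypes, which brings in the female KO animals in which these genes had been noticed, Dnajb13 was higher in females by 0.85 ± 0.14 and Gm32296 by 1.32 ± 0.22 on the log2 scale, given without a test. Over both genotypes Ildr1 differed by 0.34 ± 0.09 (adjusted p = 0.0967, edgeR), and by 0.40 (adjusted p = 0.0404) without the pair of animals rich in neutrophil markers. Pgk1, an X-linked gene, differed by -0.38 ± 0.26 (adjusted p = 0.554, edgeR).

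Levels of the 9 genes were also compared with each other over libraries. Over the 28 samples of the LPS experiment, log2 CPM of Slc1a3 correlated with that of Kdm1b (r = 0.893), Wdr41 (0.868) and Liph (0.804), and over the 18 animals with r of 0.657, 0.662 and 0.691. Dnajb13 and Gm32296 correlated with r = 0.912 over the animals and 0.481 over the LPS experiment. Pgk1 correlated with Slc1a3 at 0.349 and 0.572. These values share the libraries, their scaling and the groups, and are given as descriptions. Among 13898 genes in both tables, those most like Pgk1, by the lower of the correlations in the 2 tables, were the ribosomal protein genes Rpl21 (r = 0.784 over animals and 0.719 over the LPS experiment) and Rpl30 (0.860 and 0.709). Ildr1 was most like Txnip (0.843 and 0.895) and 1700001C19Rik (0.842 and 0.933), Dnajb13 like Per1 (0.895 and 0.857) and Dusp1 (0.837 and 0.812), and Slc1a3 like Picalm (0.858 and 0.861) and Slc39a12 (0.857 and 0.872). Liph was most like Tpp1 (0.867 and 0.907) and Adi1 (0.861 and 0.836), Wdr41 like Pccb (0.83 and 0.83) and 4931406C07Rik (0.793 and 0.826), and Kdm1b like Kbtbd2 (0.822 and 0.881) and Lrrc39 (0.820 and 0.904). Gm32296 was most like Atp6v0c (0.793 and 0.790) and Id2 (0.779 and 0.803). Gm35582, over the animals alone and among 31708 genes, was most like 4933421O10Rik (0.969) and 1700020L13Rik (0.944).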

How the data were processed

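The authors deposited 1 table of raw counts per gene for each experiment. The submitters' processing notes name FastQC, STAR 2.6.1, featureCounts, Subread, DESeq2 and the build GRCm39, and the strand setting is not given in the sources used here. Per the file headers of the sex experiment, each gene's length equals its whole span, so intronic reads may be included. The deposited counts were tested with edgeR 4.0.16 in R 4.3.3 (filterByExpr, TMM, robust quasi-likelihood F test, Benjamini-Hochberg within a contrast, threshold 0.05), 1 model of group means per table, with the library set as covariate in the LPS table, and the code was tested on simulated data. DESeq2 1.42.0 was an alternative. The tables were fitted apart, and no difference between them was tested.

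The 9 genes, the companion lists and the exclusion of the number 2 WT libraries were chosen with earlier results of these data known. WT LPS 8 and WT LPS 9 differed by little more than sampling noise (chi-square per degree of freedom 1.86, at least 8.32 for other pairs) and were summed to 1 sample. Another 6 repeat libraries of the sex experiment had no counts of their own, and whether their reads are part of the animals' counts is not stated. Named beyond the 9 genes were their closest partners, called list genes, neighbours and the most similar genes. Alternatives chosen after seeing the data were leaving out each LPS-experiment sample, leaving out libraries with more than 10000 CPM of neutrophil and monocyte markers, and females against males in WT alone. The labels do not say that LPS-experiment libraries are separate animals, so p-values measure the spread between libraries.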

Additional observations from a re-analysis of the deposited data

Results flagged for a closer look

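Of 67 groups of 4 to 8 samples examined over the 9 genes, 11 held 1 sample far from the others of its group. For independent groups of normally distributed values, about 1 in 20, or 3.4, would. These groups share libraries and their levels were not log-transformed, so nothing is read from the excess. Pgk1 accounted for 4 of the 11, 25.9 CPM in male WT 5 (others 6.33 to 8.44), 268 CPM in KO ns 6 (others 132 to 167), 248 CPM in WT LPS 7 (others 55.6 to 78.9) and 220 CPM in KO LPS 5 (others 61.6 to 91.6). The first 3 of these libraries had more than 10000 CPM of neutrophil and monocyte markers, and KO LPS 5 had 4678 CPM, the most of its group. KO LPS 5 also stood high in Kdm1b (35.6 CPM, others 22 to 27.8). Liph was low in KO ns 6 (70.7 CPM, others 110.6 to 140), and Wdr41 was low in KO ns 1 (86.2 CPM, others 114 to 136). In male WT, Ildr1 was low in animal 4 (15.2 CPM, others 17.8 to 18.1) and Kdm1b high in animal 1 (39.7 CPM, others 35.2 to 35.7). Gm32296 was high in KO LPS 7 (2.49 CPM, 54 counts, others 0.0853 to 0.728 CPM) and in WT ns 8 (0.206 CPM, 6 counts, others at most 0.0432 CPM).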

How the results depend on the processing

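Over all alternatives, 1853 values of single genes kept their direction and their side of the threshold, 31 newly passed it, 26 no longer did, 5 moved and 19 changed sign; the causes were not tested. In KO against WT of the sex experiment, where 137 of all genes were called, DESeq2 called 358, a fit without the 2 animals rich in neutrophil markers 309, and fits without 1 animal 54 (without male WT 4) to 279 (without male WT 5). Females against males gave 273 genes, 754 by DESeq2 and 167 (without male KO 4) to 495 (without male WT 5) without 1 animal. At ns, 15 genes were called, 50 by DESeq2, 1 in library set 2 alone and 11 to 18 without 1 sample. With LPS, KO against WT gave 12 genes, 57 by DESeq2, 33 with a replicate block, 20 with all libraries kept, 35 in set 1 alone, 0 in set 2 alone (edgeR; 206 at an unadjusted p under 0.05) and 9 to 19 (19 without WT LPS 5) without 1 sample. Liph was called there, but not with all libraries kept or in set 2 alone. LPS against ns on average gave 6964 genes, 4533 with all libraries and 2138 in set 2. On that contrast Ildr1, Liph and Kdm1b passed in each of 38 alternative fits, and Slc1a3 and Wdr41 in 37. The next counts use the ns libraries on which the genes were chosen, and nothing is read from those of the 8 genes. LPS in KO gave 4587, 7219 in set 1 and 721 in set 2, with 1 of the 8 genes in set 2. LPS in WT gave 4934, 0 with all libraries (edgeR; 3605 at an unadjusted p under 0.05) and 547 in set 2, with 0 of the 8 genes under each of these (5 and 4 at an unadjusted p under 0.05). Between females and males, leaving out 1 animal moved the small estimates across 0, over -0.025 to 0.1063 for Slc1a3, -0.0281 to 0.0771 for Wdr41 and -0.0024 to 0.1491 for Kdm1b. With LPS, the KO estimate of Pgk1 changed sign with all libraries (0.1075), in set 1 (0.1293), with WT LPS 8 and 9 apart (0.0865), and without the libraries rich in neutrophil markers (0.4749), and that of Ildr1 with all libraries (-0.7774) and in set 2 (-0.2121). Leaving out 1 sample gave -0.3448 (without KO LPS 5) to 0.4643 (without WT LPS 7) for Pgk1 and -0.0791 (without KO LPS 7) to 0.2476 (without WT LPS 7) for Ildr1. Without LPS, Kdm1b (-7e-04) and Dnajb13 at ns (0.0029) changed sign without the libraries rich in neutrophil markers. Deviations from the group mean correlated between same-numbered samples of different groups at mean r 0.127 over 24 pairs (lowest -0.5) in the sex experiment. In the LPS experiment mean r was 0.267 over 35 pairs (lowest -0.339). Differently numbered samples gave -0.0232 over 97 pairs and 0.0402 over 257 pairs, in that order of experiments. Same-numbered samples thus deviated together more on average, though not throughout. The main fits did not take the numbers as pairs. With the replicate block, KO against WT gave 181 genes in the sex experiment, 16 at ns and 33 with LPS.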
